A study of Mus musculus with 8 samples.

Results

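The acute phase plasma proteins examined here were the products of 10 genes, Saa1, Saa2, Saa3, Orm1, Orm2, Hp, Hpx, Lcn2, Crp and Apcs. They were chosen by their symbols out of 24451 genes in the table of normalized counts, and all 10 had a mean of at least 5 normalized counts over the 8 livers, the level above which a gene was tested. The study deleted Brap, which encodes BRCA1-associated protein, in the liver of mice. Bulk RNA of the left lobe of the liver was sequenced from 4 Brap LKO mice and 4 Brap F/F mice, 1 liver per library. All 8 mice are labelled C57BL/6, were 18 wk old, carried floxed Brap alleles and had been fasted for 6 h before sacrifice. The Brap LKO mice also carried Cre under the albumin (Alb) promoter, which acts in hepatocytes and in cells descended from their precursors, and the Brap F/F mice, labelled wildtype, did not carry Cre. The libraries held from 26280884 to 33313914 reads on genes. Cre removes exons 2 and 3 of Brap only, and counts over the whole gene were not used to check the labels. No mouse received an inflammatory stimulus according to the sources used here. The comparison asks whether the messages of these plasma proteins differed between livers with and without the deletion.

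The acute phase response is the change in the blood's protein content that follows infection or injury. Cytokines of the interleukin-6 family act through the shared receptor chain gp130 and the transcription factor STAT3, and interleukin-1 acts through NF-kB, and together with C/EBP factors and glucocorticoids they raise the transcription of a set of hepatocyte genes. The level of these messages in the liver is therefore commonly read as a measure of systemic inflammation, and serum amyloid A is the member with the widest range.

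None of the 10 members was called different between the groups, while livers of the same group differed widely. At an adjusted p-value of 0.05 in limma (a linear model of log2(normalized count + 1) fitted over all tested genes, with Benjamini-Hochberg adjustment), 0 of the 10 were called, where 0.769% of all 15352 tested genes were. An unadjusted p-value of 0.05 was reached by 0 of 10, against 15.8% of tested genes. In edgeR and in DESeq2, run on the reads recovered from the deposited values, 0 of 10 were called as well, against backgrounds of 0.795% and 2.48%, and 0 of 10 had an unadjusted p-value under 0.05 in either tool, against 15.6% and 10.5% of genes. The edgeR shares are of the same 15352 genes, but the DESeq2 shares are of 24446 genes without that filter on the mean. DESeq2 sets low genes aside itself before it adjusts p-values, so its 2.48% is of more genes than could be called. The shares are therefore not directly comparable. The values of the groups overlapped in all 10 members, whereas they did not overlap in 9.87% of tested genes. The highest liver of all 8 was Brap F/F replicate 4 in each of the 10 genes.

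The serum amyloid A genes lie together on chromosome 7 of mm10. Saa1 occupies chr7:46740497-46742980 on the minus strand, Saa2 chr7:46751790-46754313 on the plus strand and Saa3 chr7:46711998-46715700 on the minus strand. The promoters of these 3 genes, of Orm2 and of Lcn2 are shown because Saa1, Saa2, Lcn2 and Orm2 were the members that varied most from liver to liver, and Saa3 varied less than they did. Each run gives the 250 bases before the start site in RefSeq (build GRCm38.p6), 5′ to 3′ on the gene's own strand. They are chr7:46742981-46743230 (minus strand) for Saa1, chr7:46751583-46751832 (plus strand) for Saa2, chr7:46715677-46715926 (minus strand) for Saa3, chr4:63362199-63362448 (plus strand) for Orm2 and chr2:32387740-32387989 (minus strand) for Lcn2. Capitals mark matches to the motifs described after the sequences.
Saa1: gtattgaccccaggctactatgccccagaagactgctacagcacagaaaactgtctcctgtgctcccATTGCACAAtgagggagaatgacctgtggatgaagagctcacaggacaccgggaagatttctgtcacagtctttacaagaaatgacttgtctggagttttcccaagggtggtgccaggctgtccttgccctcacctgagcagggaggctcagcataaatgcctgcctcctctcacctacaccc
Saa2: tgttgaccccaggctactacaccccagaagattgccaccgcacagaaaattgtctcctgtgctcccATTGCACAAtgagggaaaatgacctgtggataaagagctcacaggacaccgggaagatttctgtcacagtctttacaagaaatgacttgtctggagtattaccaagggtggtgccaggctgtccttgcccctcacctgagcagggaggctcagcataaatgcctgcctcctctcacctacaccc
Saa3: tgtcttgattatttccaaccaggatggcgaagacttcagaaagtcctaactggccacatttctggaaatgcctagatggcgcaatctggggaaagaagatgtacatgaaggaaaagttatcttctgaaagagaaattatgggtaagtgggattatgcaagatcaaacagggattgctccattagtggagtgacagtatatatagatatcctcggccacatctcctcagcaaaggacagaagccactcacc
Orm2: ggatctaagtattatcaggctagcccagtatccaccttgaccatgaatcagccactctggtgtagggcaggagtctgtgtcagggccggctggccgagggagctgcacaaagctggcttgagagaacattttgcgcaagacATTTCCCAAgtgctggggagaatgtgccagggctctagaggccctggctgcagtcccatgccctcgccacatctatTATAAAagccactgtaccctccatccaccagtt
Lcn2: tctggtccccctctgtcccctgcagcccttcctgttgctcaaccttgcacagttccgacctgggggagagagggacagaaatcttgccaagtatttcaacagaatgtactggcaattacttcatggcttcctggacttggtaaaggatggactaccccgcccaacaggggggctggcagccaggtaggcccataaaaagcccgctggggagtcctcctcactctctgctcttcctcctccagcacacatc

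Over the 300 bases that RefSeq's promoter table holds (250 before the start and 50 after it), Saa1 and Saa2 were identical at 95.3% of aligned positions and Saa1 and Saa3 at 50.1%. Both strands were searched for TTNNGNAAT, a form of the C/EBP motif, and it was found at -183 from the start in Saa1, at -184 in Saa2, at -109 in Orm2 and at -78 in Crp. The first 3 of these matches are on the strand opposite to the gene, and 11.5% of the 32851 promoters in the table hold this motif. The TATA box letters TATAAA were found at -33 in Orm2 and at -31 in Crp, against 13.6% of promoters. TTCNNNGAA, the STAT motif, was found in Apcs only, at -244, against 8.30% of promoters. An NF-kB motif (GGG, any 2 bases, then TTTCC) and GTTAAT for HNF1 matched none of the 8 members with a promoter in the table, and 1.63% and 7.10% of all promoters hold them. Saa3, Lcn2 and Hpx held none of the motifs. These are matches of letters and no binding was measured. The table holds no entry for Hp and Orm1.

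Saa1 and Saa2 encode the circulating serum amyloid A proteins, small apolipoproteins that travel on high-density lipoprotein. Saa1 had normalized counts (reads on the gene divided by a size factor of the library) of 1071, 2415, 2572 and 4936 in Brap LKO replicates 1 to 4. In Brap F/F replicates 1 to 4 the values were 6111, 344, 377 and 11160.2. Replicates 1 and 4 of the Brap F/F livers were thus the highest of the 8 and replicates 2 and 3 the lowest, and every Brap LKO liver lay between them, an order found in 1.64% of tested genes. The highest value was 32.5 times the lowest. Group means were 2749 ± 1606 (SD, n = 4) in Brap LKO and 4498 ± 5203 (SD, n = 4) in Brap F/F livers. The log2 fold change, Brap LKO over Brap F/F, was 0.47 (standard error 1.11, 95% confidence interval -2.03 to 2.97, limma adjusted p = 0.860), and a two-sided exact permutation test gave p = 0.714. The sign was not stable, since edgeR gave -0.70 (adjusted p = 0.763) and limma gave -0.30 and -0.26 when Brap F/F replicate 2 or 3, respectively, was left out.

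Saa2 followed the same course at a similar level. Its normalized counts were 630.3, 1279, 1689.5 and 4474 (Brap LKO replicates 1 to 4) against 3951, 219, 311 and 12082 (Brap F/F replicates 1 to 4). The span over the 8 livers was 55.3-fold, the widest of the 10 members, and within the Brap LKO group alone it was 7.10-fold. Brap LKO replicate 4 exceeded Brap F/F replicate 1 here, unlike in Saa1. The log2 fold change was 0.23 (standard error 1.22, 95% confidence interval -2.51 to 2.96, limma adjusted p = 0.943; exact permutation p = 0.914) and edgeR gave -1.02 (adjusted p = 0.686). Counts of the pair cannot be fully told apart. Their transcripts are identical at 87.3% of aligned positions, and 14.8% of the 50-base windows in the Saa1 transcript and 9.12% of those in Saa2, the length of a read, also occur in other genes. The counting tool and its treatment of such reads are not given in the sources used here. The sum of both genes, which does not depend on that split, was 1702, 3695, 4261 and 9410.2 in Brap LKO replicates 1 to 4 and 10062, 562, 689 and 23243 in Brap F/F replicates 1 to 4. The ratio of Saa1 to Saa2 lay between 0.924, in Brap F/F replicate 4, and 1.89, in Brap LKO replicate 2.

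Saa3, which macrophages and fat tissue also make in the mouse, was low and varied less than every other member except Crp. The normalized counts were 118, 108, 80.9 and 133 in Brap LKO replicates 1 to 4. They were 131, 106, 88.3 and 172 in Brap F/F replicates 1 to 4. The highest liver held 2.12 times the value of the lowest, and Brap F/F replicate 4 was again the highest. The group means were 109.9 ± 21.9 and 124 ± 36.2 (SD, n = 4 each), with a log2 fold change of -0.15 (standard error 0.224, 95% confidence interval -0.66 to 0.35, limma adjusted p = 0.762; exact permutation p = 0.629).

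**Figure D1:**
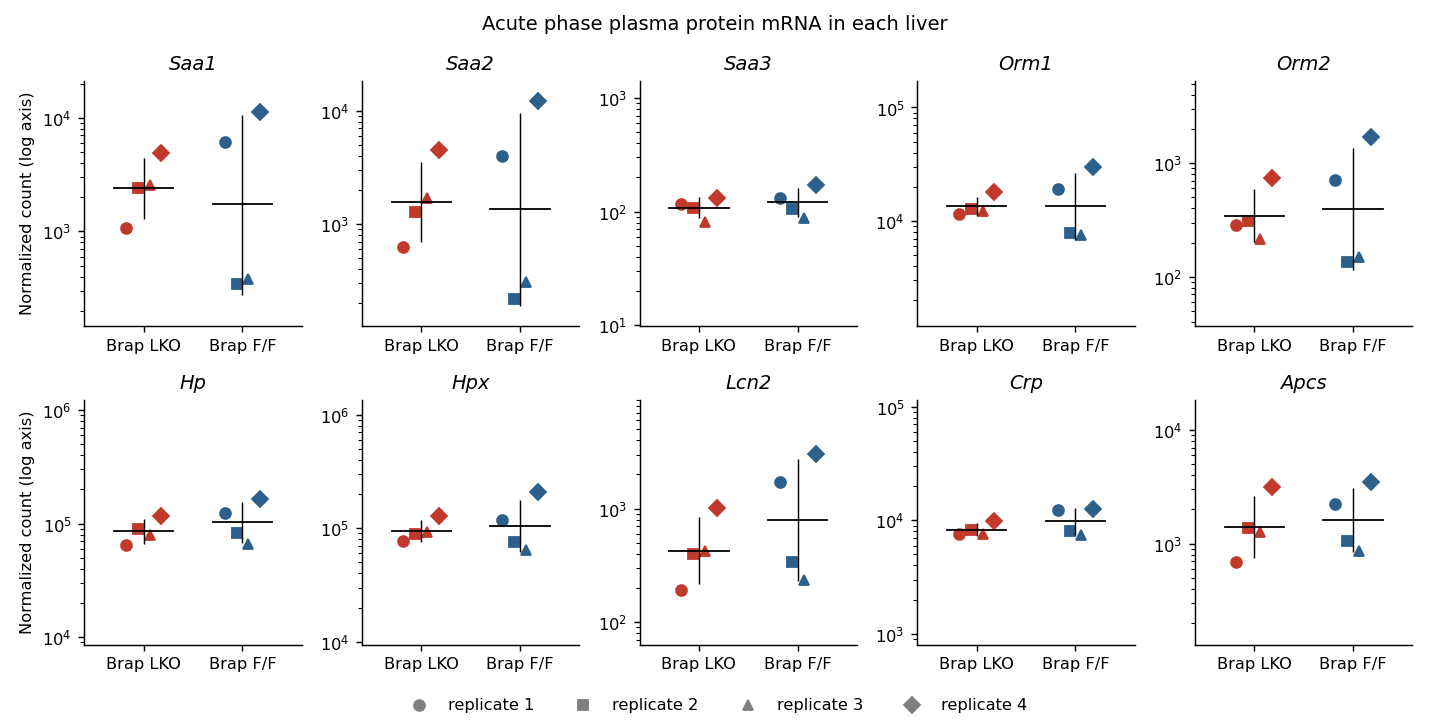
Normalized counts (log axis spanning the same number of decades in each panel) of the 10 members in the 4 Brap LKO livers (red) and the 4 Brap F/F livers (blue), with the marker shape giving the replicate number. The horizontal bar is the mean of the log2 values and the vertical line ±1 SD (n = 4). Replicate 4 is the highest liver of its group in every panel, and the Brap F/F livers split widely in Saa1, from 344 to 11160.2.

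Orm1 and Orm2 encode orosomucoids (alpha-1-acid glycoproteins), plasma carriers of basic drugs and steroids. They lie next to each other on the plus strand of chromosome 4, at chr4:63344560-63348163 and chr4:63362449-63365878. Orm1 stood at 11446, 12841, 12364 and 17952 normalized counts (Brap LKO replicates 1 to 4) and at 18985, 7868, 7478.25 and 29619.5 (Brap F/F replicates 1 to 4). As with Saa1, every Brap LKO liver lay between the 2 higher and the 2 lower Brap F/F livers. The group means of Orm1, 13651 ± 2925 and 15988 ± 10538 (SD, n = 4 each), had a log2 fold change of -0.01 (standard error 0.411, 95% confidence interval -0.93 to 0.92, limma adjusted p = 0.996; exact permutation p = 0.971), and edgeR gave -0.21 (adjusted p = 0.833).

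Orm2 was the lower of the pair and varied more. It stood at 283, 310.1, 214 and 743 normalized counts (Brap LKO replicates 1 to 4) and at 715, 134, 148 and 1714 (Brap F/F replicates 1 to 4). The 12.8-fold span over the livers compares with 3.96-fold for Orm1, so that the ratio of Orm1 to Orm2 was lowest (17.3) in Brap F/F replicate 4 and highest (58.6) in Brap F/F replicate 2. Its log2 fold change was -0.20 (standard error 0.781, 95% confidence interval -1.96 to 1.55, limma adjusted p = 0.919; exact permutation p = 0.8286), and edgeR gave -0.80 (adjusted p = 0.639). The transcripts are identical at 91.0% of aligned positions, and 20.4% of the 50-base windows in Orm1 and 22.7% of those in Orm2 occur in another gene, so their counts are uncertain to that extent.

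Haptoglobin (Hp) binds haemoglobin and hemopexin (Hpx) binds free haem, and both are plasma proteins that keep haem iron from tissues. Hp lies at chr8:109575128-109579172 and Hpx at chr7:105591613-105600137, both on the minus strand. Hp stood at 64542, 89034, 79153 and 116810 normalized counts (Brap LKO replicates 1 to 4) and at 124676, 81940, 66156 and 165308 (Brap F/F replicates 1 to 4). The lowest liver was Brap LKO replicate 1, and the range was 2.56-fold. Means of Hp were 87385 ± 22046 and 109520 ± 44658 (SD, n = 4 each), and the log2 fold change was -0.27 (standard error 0.300, 95% confidence interval -0.94 to 0.41, limma adjusted p = 0.685; exact permutation p = 0.429).

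Hpx was as abundant as Hp. Its normalized counts were 76685, 89006, 92113 and 129253 (Brap LKO replicates 1 to 4) against 117672, 75547, 63589 and 209485 (Brap F/F replicates 1 to 4). Brap LKO replicate 4 was second among the 8, above Brap F/F replicate 1. The log2 fold change was -0.14 (standard error 0.352, 95% confidence interval -0.93 to 0.66, limma adjusted p = 0.873; exact permutation p = 0.800). The ratio of Hp to Hpx stayed between 0.789 and 1.08 in the 8 livers, while each gene varied over 2.56-fold and 3.29-fold, respectively.

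Lipocalin 2 (Lcn2, chr2:32384633-32388252, minus strand) sequesters the iron-carrying siderophores of bacteria. It stood at 192, 396, 422 and 1017 normalized counts (Brap LKO replicates 1 to 4) and at 1705, 338, 235 and 3025 (Brap F/F replicates 1 to 4). The Brap F/F replicates 1 and 4 were the 2 highest livers, and Brap LKO replicate 1 was the lowest. The fitted difference of Lcn2 was the largest of the 10 with all livers in the fit, with means of 507 ± 355 in Brap LKO and 1326 ± 1316 in Brap F/F livers (SD, n = 4 each) and a log2 fold change of -0.91. The standard error of this value was 0.814 (95% confidence interval -2.74 to 0.92, limma adjusted p = 0.608; exact permutation p = 0.429), and edgeR gave -1.38 (adjusted p = 0.430). Leaving out Brap F/F replicate 4 or 1 gave -0.27 and -0.55 for Lcn2, smaller in size than the values for Saa1 in the same fits (1.37 and 1.08).

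The short pentraxins Crp (C-reactive protein) and Apcs (serum amyloid P component) bind ligands on microbes and damaged cells, and in the mouse serum amyloid P is the pentraxin that rises in inflammation. Both genes lie on chromosome 1, Crp at chr1:172698055-172833031 on the plus strand and Apcs at chr1:172893961-172895041 on the minus strand. Crp stood at 7558, 8163, 7521 and 9957 normalized counts (Brap LKO replicates 1 to 4) and at 12308, 8023, 7439 and 12538 (Brap F/F replicates 1 to 4). It was the steadiest member, with a 1.69-fold range. The means of Crp were 8299.7 ± 1144 and 10077 ± 2721 (SD, n = 4 each), and the log2 fold change of -0.25 (standard error 0.185, 95% confidence interval -0.67 to 0.17) was not called (limma adjusted p = 0.536; exact permutation p = 0.343).

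Apcs varied more than Crp. It stood at 693, 1382, 1262 and 3181 normalized counts (Brap LKO replicates 1 to 4) and at 2243, 1044, 866 and 3468 (Brap F/F replicates 1 to 4). The highest livers were replicate 4 of each group. Unlike the other members, Apcs had nearly the same spread in both groups, with an SD of the log2 values of 0.904 in Brap LKO and 0.938 in Brap F/F livers. Its log2 fold change was -0.22 (standard error 0.523, 95% confidence interval -1.39 to 0.96, limma adjusted p = 0.862; exact permutation p = 0.743).

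**Figure D2:**
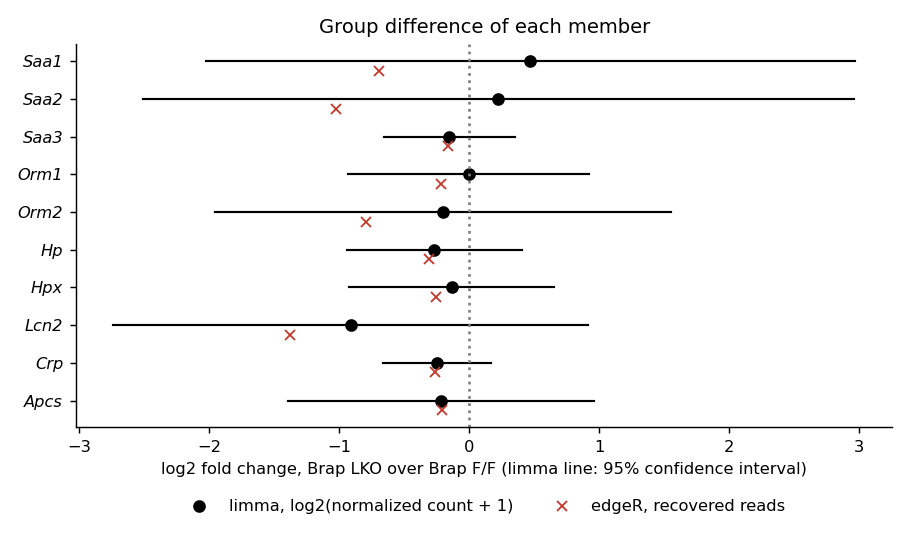
Log2 fold change of each member, Brap LKO over Brap F/F, from limma (black points, with 95% confidence intervals as lines) and from edgeR on recovered reads (red crosses). Every interval includes 0, and the widest are those of Saa1 (-2.03 to 2.97) and Saa2 (-2.51 to 2.96).

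The arithmetic mean was lower in the Brap LKO livers in 10 of 10 members, against 53.1% of tested genes, and the mean log2 value was lower in 8 of 10, against 52.0%. These counts are no independent evidence, since the members' values moved together from liver to liver. The intervals leave room for sizeable differences in the widely varying members. For Crp the interval ended at -0.67 and 0.17, so larger changes than these lay outside it, whereas for Saa2 the interval ran from -2.51 to 2.96.

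The 10 messages differed in abundance by more than 2 orders of magnitude. On a scale of normalized counts per kb of transcript, averaged over the 8 livers, Hp (73199) and Hpx (71160) were highest, and Hp exceeded Hpx in 5 of the 8 livers, so their order was not settled. Orm1 followed at 19122 per kb and exceeded the next gene, Saa1 (5949.7 per kb), in 8 of 8 livers. The mean of Saa1 stood above that of Crp (5421 per kb), but Saa1 was the higher of them in only 3 of 8 livers. Saa2 (4723 per kb) and Apcs (1820.2 per kb) came next, each with 6 of 8 livers in the order of the means. Lcn2 (1009 per kb), Orm2 (687 per kb) and Saa3 (211 per kb) were lowest. Together the members took 0.595%, 0.724%, 0.681% and 1.04% of the reads on genes in Brap LKO replicates 1 to 4 and 0.963%, 0.536%, 0.459% and 1.45% in Brap F/F replicates 1 to 4. The group means of this share were 0.759% and 0.853%.

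The spread between livers of the same group set most members apart from other genes. The residual SD of log2(normalized count + 1) within groups had a median of 0.820 over the 10 members, where all tested genes had 0.214 and the 10143 tested genes with a mean of at least 100 had 0.148. It was 2.15 for Saa2 and 1.97 for Saa1, each larger than in 99.9% of tested genes. Lcn2 (1.44) and Orm2 (1.38) exceeded 99.6% and 99.5% of tested genes, Apcs (0.921) 97.1% and Orm1 (0.720) 93.3%. Hpx, Hp, Saa3 and Crp were less extreme, at 88.3%, 82.7%, 71.7% and 66.0%. Among the tested genes with a mean of at least 100, which leaves out the noisier low genes, these last 4 stood at 97.1%, 95.4%, 90.3% and 86.5%, and the other 6 members at 98.3% or more. In 10 of 10 members the log2 values had a larger SD among the Brap F/F livers than among the Brap LKO livers, which was so in 64.0% of tested genes. In Saa1 these SDs were 2.63 and 0.903. No test of the difference in spread was made, and 4 livers per group give little precision for it.

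**Figure D3:**
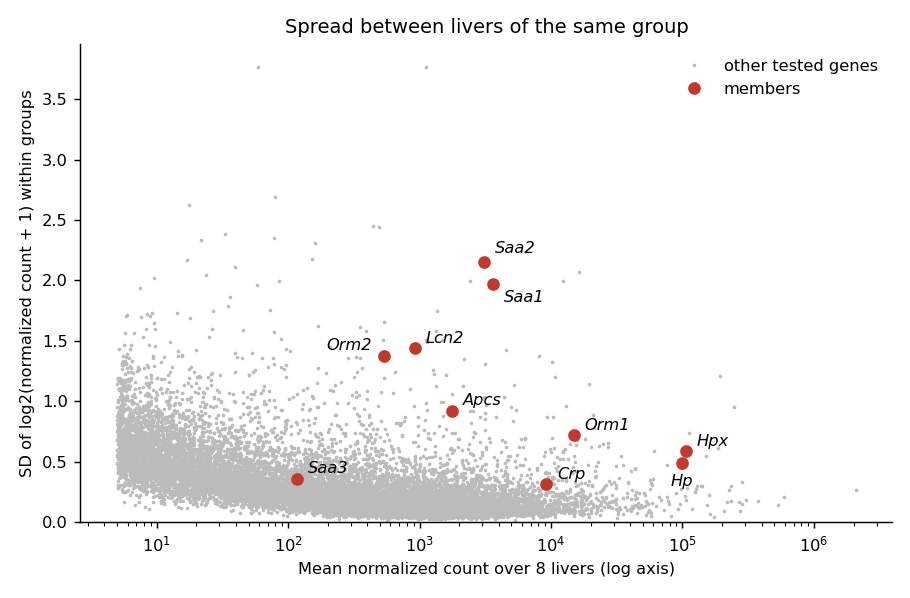
SD of log2(normalized count + 1) within groups (vertical axis) against the mean normalized count over the 8 livers (log axis) for the members (red) and the other tested genes (grey). Saa1 and Saa2 lie above nearly all genes of similar abundance, with SDs of 1.97 and 2.15, whereas Crp (0.312) and Saa3 (0.360) lie lowest of the members, above most genes of similar abundance.

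The same livers were high in all members. Brap F/F replicate 4 was the highest of 8 livers in 10 of 10 members, against 14.4% of tested genes. Replicate 4 was the highest of its group in both groups at once in 10 of 10 members, against 11.7% of tested genes. Brap F/F replicates 1 and 4 were the 2 highest of their group in 10 of 10, against 27.6% of tested genes, and in 5 members (Saa1, Orm1, Hp, Lcn2 and Crp) they were the 2 highest of all livers. The lowest liver was Brap LKO replicate 1 in 3 members (Hp, Lcn2 and Apcs), Brap F/F replicate 2 in 3 (Saa1, Saa2 and Orm2), Brap F/F replicate 3 in 3 (Orm1, Hpx and Crp) and Brap LKO replicate 3 in 1 (Saa3). Averaged over the members, the deviation of log2(normalized count + 1) from each gene's own mean was -0.66, -0.14, -0.22 and 0.73 in Brap LKO replicates 1 to 4 and 0.79, -0.97, -1.07 and 1.54 in Brap F/F replicates 1 to 4. The numbers of the animals fall into a lower series (Brap LKO replicates 1 to 3 and Brap F/F replicate 1) and a higher series, and each series held both high and low livers. Neither series has 2 livers of each group, so the groups were not compared within a series, and with the series as a covariate 0 of 10 members were called.

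Each member was also set against the mean deviation of the other 9 over the 8 livers. Pearson's r was between 0.906 (Crp) and 0.984 (Orm1) for 9 members and 0.791 for Saa3. Without the 2 livers farthest from the median it was between 0.819 and 0.976 for those 9 and 0.481 for Saa3. Saa3 therefore shared the profile least. These are descriptions over 8 libraries that share size factors, and the paralogs share reads.

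The 5 genes outside the set with the profile most like the members' mean deviation, among 11305 genes with a mean of at least 50, were Itih3 (r = 0.992), Pus3 (r = 0.988), Cad (r = 0.987), Isyna1 (r = 0.987) and Slc3a1 (r = 0.986), each over 8 livers. Itih3 encodes a heavy chain of the inter-alpha-trypsin inhibitors, itself a plasma protein. Its normalized counts were 26497, 30153, 30152 and 41543 (Brap LKO replicates 1 to 4) against 42011, 23574, 19789.9 and 57815 (Brap F/F replicates 1 to 4). Cad, the enzyme that starts pyrimidine synthesis, ranged from 372 to 812 normalized counts, and Isyna1, which makes inositol phosphate, from 101 to 499. Slc3a1, a subunit of an amino acid transporter, ranged from 889 to 3760 and Pus3, a tRNA pseudouridine synthase, from 92.5 to 144. Brap F/F replicate 4 was the highest and Brap F/F replicate 3 the lowest liver in each of these 5 genes. They were chosen for their likeness to the members, so sharing these extremes follows largely from the choice.

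**Figure D4:**
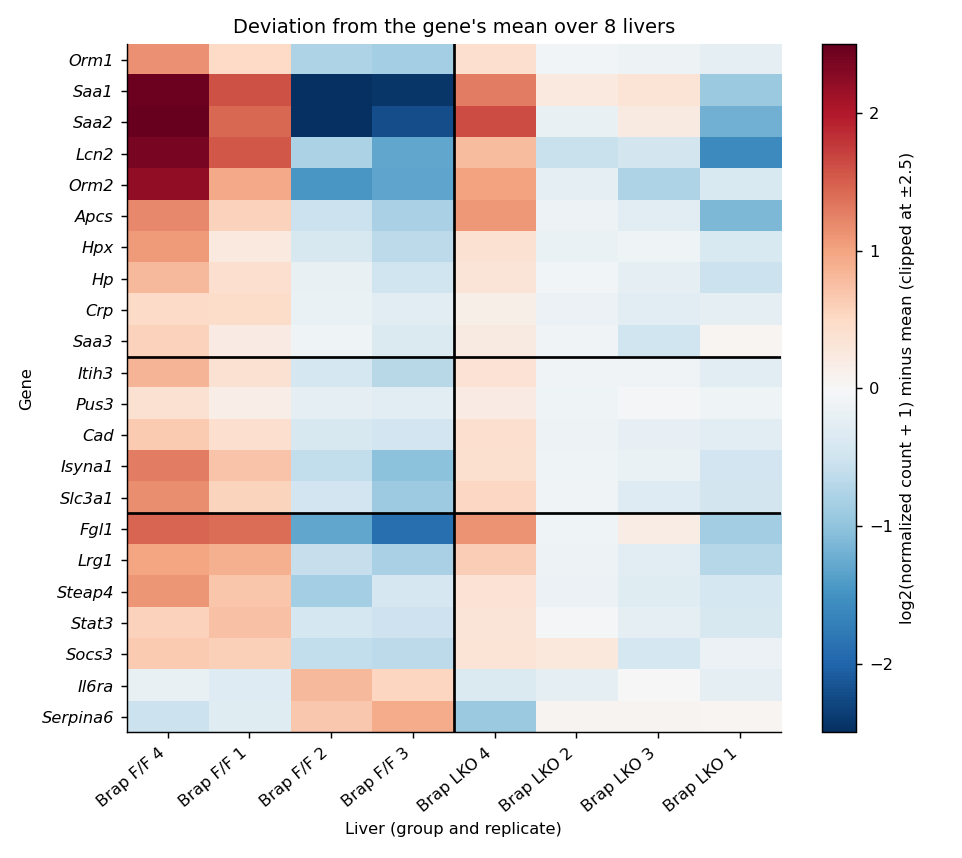
Deviation of log2(normalized count + 1) from each gene's mean over the 8 livers (colour, limited to ±2.5) for the members (top block), the 5 most similar other genes (middle block) and 7 genes of the acute phase pathway (bottom block). These 7 were picked after their values were seen and do not stand for the pathway as a whole. Livers are ordered by the members' mean deviation within each group, from 1.54 in Brap F/F replicate 4 to -1.07 in replicate 3, and Il6ra and Serpina6 run the other way among the Brap F/F livers.

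Of 28 further positive acute phase genes, 26 were tested, 1 was called lower in the Brap LKO livers and 0 were called higher. By fitted direction alone, 19 were lower and 7 higher. Shares of all tested genes called were 0.664% higher and 0.104% lower. The gene that fell was Serpina3m, of the alpha-1-antichymotrypsin family of protease inhibitors. It stood at 5282, 5616, 6891 and 6258 normalized counts (Brap LKO replicates 1 to 4) and at 11341, 10777, 9864 and 11751 (Brap F/F replicates 1 to 4). All Brap LKO livers lay below all Brap F/F livers (log2 fold change -0.87, standard error 0.0985, limma adjusted p = 0.00906), and the Brap F/F livers stood in the members' order over a narrower range, with replicates 4 and 1 above replicates 2 and 3. The median log2 fold change of the 26 was -0.17, beside -0.01 for all tested genes. The most abundant of them were C3, the central complement component, Serpina3k, and the fibrinogen chains Fga and Fgb, and none of these was called (adjusted p between 0.820 and 0.952). Fga resembled the members, with 118317, 159708, 138142 and 262931 normalized counts (Brap LKO replicates 1 to 4) against 216128, 122392, 126289 and 347272 (Brap F/F replicates 1 to 4). Brap F/F replicate 4 was the highest liver in 19 of the 26, and replicates 1 and 4 were the 2 highest Brap F/F livers in 18. The steepest of several such genes named after their values were seen was Fgl1, a fibrinogen-like hepatokine, with 3274, 5611, 6844 and 13024 normalized counts (Brap LKO replicates 1 to 4) against 15774, 2449, 1633 and 16513 (Brap F/F replicates 1 to 4).

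Saa4 and Orm3 complete both families and were also seen before they were named. Saa4, the constitutive serum amyloid A, stood at 12406, 16218, 11989 and 16603 (Brap LKO replicates 1 to 4) against 26761, 18732, 15663 and 26988 (Brap F/F replicates 1 to 4) (log2 fold change -0.60, standard error 0.196, limma adjusted p = 0.197). Its order within the Brap F/F group was that of the members, over a narrower range. Orm3 was low, between 56.7 and 146, and its highest liver was Brap LKO replicate 1.

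None of the 14 negative acute phase genes, whose plasma products fall in inflammation, was called, and their median log2 fold change was -0.21. In fitted direction alone, 12 were lower and 2 higher in Brap LKO livers. Brap F/F replicates 1 and 4 were the 2 highest Brap F/F livers in 2 of the 14. Alb took between 5.17% and 9.34% of the reads of a library and was highest in Brap F/F replicate 2. Its log2 fold change was -0.52 (limma adjusted p = 0.634). Apoa1 (log2 fold change 0.01, adjusted p = 0.985) and Ahsg (log2 fold change -0.03, adjusted p = 0.958), which encode apolipoprotein A-I and fetuin-A, were among the most abundant. Serpina6, the corticosteroid-binding globulin, was named after its values were seen and ran against the members, with 5809.6, 5874, 5872 and 2939 normalized counts (Brap LKO replicates 1 to 4) against 4529.9, 8940.5, 10756 and 3890.5 (Brap F/F replicates 1 to 4).

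The cytokine messages that start the response were scarce in whole liver. Of 12 ligands 7 were tested, 1 was called higher in Brap LKO livers and 0 were called lower. By fitted direction alone, 5 were higher and 2 lower. Il6, which was named for its role after its values were seen, was at 1 read in each of 2 livers (Brap LKO replicate 2 and Brap F/F replicate 4) and at 0 in the others, which allows up to 3 reads per library. The gene that rose was Clcf1, a cytokine of the interleukin-6 family that signals through gp130. It stood at 68.3, 65.4, 54.6 and 80.1 normalized counts (Brap LKO replicates 1 to 4) against 37.6, 26.4, 24.2 and 33.4 (Brap F/F replicates 1 to 4) (log2 fold change 1.13, standard error 0.195, limma adjusted p = 0.0417). The groups did not overlap, but the call was lost when any liver other than Brap F/F replicate 4 was left out. The others given by abundance, Il18 (log2 fold change -0.15), Ctf1 (-0.60) and Il1a (0.50), were not called. The groups of Ctf1 did not overlap either, in the opposite direction to Clcf1. Ctf1 stood at 89.3, 93.4, 100.2 and 79.0 (Brap LKO replicates 1 to 4) against 102.6, 172.9, 182.9 and 108.9 (Brap F/F replicates 1 to 4) (limma adjusted p = 0.216).

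Receptors, kinases and transcription factors of the pathway were not called in either direction in 14, 13 and 19 tested genes, with median log2 fold changes of 0.02, -0.03 and 0.03. Il6st, which encodes gp130, had normalized counts between 5756 and 7649 in the 8 livers (log2 fold change 0.07, adjusted p = 0.753). Il6ra, the interleukin-6 receptor, stood at 3659.9, 3696, 4313 and 3404 (Brap LKO replicates 1 to 4) against 3473, 7612, 6309 and 3834 (Brap F/F replicates 1 to 4), so that the Brap F/F livers with the lowest serum amyloid A had the highest Il6ra. Lifr, the leukaemia inhibitory factor receptor, had means of 13947 ± 2073 and 8459 ± 2490.1 (SD, n = 4 each; limma adjusted p = 0.133), and DESeq2 called it higher (log2 fold change 0.72, adjusted p = 0.0249). Hnf4a and Cebpa, hepatocyte transcription factors, had log2 fold changes of 0.05 each (adjusted p = 0.875 and 0.845). Stat3 was named after its values were seen. It stood at 3305, 4322, 3731 and 5520.5 (Brap LKO replicates 1 to 4) against 7279, 3232, 3051 and 6531 (Brap F/F replicates 1 to 4), which is the members' order except that Brap F/F replicate 1 stood above replicate 4.

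The 15 feedback genes, most of which restrain cytokine and NF-kB signaling, were not called either, with a median log2 fold change of 0.07. Zfp36 and Nfkbia were the most abundant, with log2 fold changes of -0.06 and -0.16. Socs3, an inhibitor of the interleukin-6 signal that STAT3 induces, was named after its values were seen, with 265, 355, 219 and 372 normalized counts (Brap LKO replicates 1 to 4) against 446, 193, 188 and 465 (Brap F/F replicates 1 to 4) (log2 fold change 0.01, standard error 0.330, adjusted p = 0.995). Its 2 highest livers were again Brap F/F replicates 4 and 1. Of the 15 genes of clearance and haem handling 0 were called, with a median log2 fold change of -0.02. Lrp1, the receptor that takes up haem bound to hemopexin, was not called (log2 fold change 0.12, adjusted p = 0.658). Cd163, the macrophage receptor for haptoglobin bound to haemoglobin, was named after its values were seen and stood at 601, 443, 324 and 283 (Brap LKO replicates 1 to 4) against 711, 1052, 1011 and 901 (Brap F/F replicates 1 to 4). Its groups did not overlap and it missed the threshold narrowly (log2 fold change -1.20, standard error 0.226, limma adjusted p = 0.0532), while DESeq2 called it lower (log2 fold change -1.15, adjusted p = 0.000162).

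In bulk tissue, fewer cells of a type and less RNA per cell cannot be told apart. All 10 hepatocyte markers were expressed and 0 were called. Of these, 7 were lower and 3 higher in Brap LKO livers by fitted direction alone (median log2 fold change -0.22). Of 12 Kupffer cell and macrophage markers 0 were called, and their summed normalized count was 8773.5 to 15498 in Brap LKO and 8621 to 12398 in Brap F/F livers. Of 12 neutrophil markers only 4 were high enough to be tested (S100a8, S100a9, Csf3r and Mmp9), 0 were called, and the sum over all of them was 90.0 to 162 in Brap LKO and 50.5 to 149 in Brap F/F livers. The defining marker Ly6g, likewise named after its values were seen, was at 0 in 6 of the 8 livers. S100a9 stood at 4.55, 12.7, 12.1 and 27.0 normalized counts (Brap LKO replicates 1 to 4) against 21.7, 2.03, 3.15 and 17.7 (Brap F/F replicates 1 to 4), so the livers with high members were also higher in this message. Of the 4 tested markers, 3 had Brap F/F replicates 1 and 4 as the 2 highest Brap F/F livers. In 0 of the 4 was Brap F/F replicate 4 the highest of all 8. The 4 markers' mean deviation of log2 values was 0.24 in that liver, below 0.33 in Brap LKO replicate 2. Of 9 tested cholangiocyte markers 2 (Cftr and Cldn4) were called higher in Brap LKO livers, and by fitted direction alone 9 of 9 were higher. The sum was largest in Brap LKO replicate 4 (3819, against 1141 to 2246 in the other 7 livers). The part of these cells in the members' values was not tested. Of the B and plasma cell and the T and NK cell markers 0 were called. By fitted direction alone, 7 of 8 B and plasma cell markers were higher in Brap LKO livers (median log2 fold change 0.47). So were 7 of 8 T and NK cell markers (0.60) and 11 of 12 Kupffer cell and macrophage markers (0.25). The median of all tested genes was -0.01.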

How the data were processed

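RNA from 8 livers was extracted with TRIzol and RNeasy columns, prepared with NuGEN's Universal Plus mRNA kit and sequenced as single-end reads of 50 bases. Per the submitters' processing notes, reads passed FastQC, were aligned to mm10 with STAR 2.6.0c and were compared with DESeq2. The counting tool, annotation release and use of strand are not given in the sources used here, so reads of overlapping antisense transcripts cannot be told apart. The deposited signal is a normalized count, the number of reads on a gene after scaling by the authors with DESeq2 size factors. Every value (100%, tolerance 1e-06) was a whole multiple of the value of 1 read, so reads were recovered. All 8 columns were used (0 were left out). The authors also deposited their own comparison (mean, log2 fold change with its error, ratio or fold change, p-value and adjusted p-value), which was not used.

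Groups and replicate numbers follow the labels. log2(normalized count + 1) was compared with limma 3.58.1 in R 4.3.3 (mean-variance trend, no covariate) for 15352 genes with a mean of at least 5, with Benjamini-Hochberg adjustment over all of them. The threshold was an adjusted p of 0.05. The paper used DESeq2, which needs counts, so edgeR 4.0.16 (quasi-likelihood) and DESeq2 1.42.0 on the recovered reads were alternatives. A fold change on the log2(value + 1) scale understates changes of low genes. Two-sided exact permutation tests used the 70 arrangements of 4 livers against 4, with a smallest p of 0.0286. The labels give each mouse its own animal number, so p-values rest on the spread between mice. The limma and edgeR scripts were tested on simulated data.

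The members and the gene lists were chosen with earlier results of these data known. The text names all 10 members, from each list every gene past the threshold and the genes with the highest mean (up to 4), and the 5 other genes most like the members by Pearson's r. Genes named outside this rule are said to be so. Positions and transcripts came from GENCODE (mm10), where 24430 of 24451 genes were found, and promoters from RefSeq (GRCm38.p6), which matched 8 of 10 members. The level per kb used the transcript with the longest coding sequence. A count of 0 allows 3 reads. Alternatives were other pseudocounts (0.5 and 5), other filters (none, or a mean of 20), quantile, same-total and TMM scaling, limma without trend, robust or with array weights, replicate number as a blocking term, animal series as a covariate, each liver left out, other thresholds (0.1 and 0.01), Alb left out of the total, and windows of 25 bases.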

Additional observations from a re-analysis of the deposited data

How the results depend on the processing

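No member passed the threshold under any of the 22 alternative fits in limma, edgeR or DESeq2, or at an adjusted p of 0.1 or 0.01, and Hp, Lcn2 and Crp kept their direction in all of them, though with each liver left out in turn their log2 fold changes ran from -0.48 to -0.04, -1.499 to -0.27 and -0.38 to -0.13. The fitted log2 fold changes of the other 7 members changed sign under some settings without reaching significance. With edgeR and DESeq2 those of Saa1 were -0.70 and -0.71, and those of Saa2 -1.02 and -1.04. Without a change of sign, these count tests also moved Orm2 to -0.80 and -0.81, Orm1 to -0.21 and -0.23, and Hpx to -0.25 and -0.27. Scaling to the same total moved the median of all tested genes from -0.01 to 0.15 and gave 0.0017 for Saa3, 0.15 for Orm1 and 0.0217 for Hpx. Quantile normalization gave 0.12 for Orm1 and 0.11 for Hpx, array weights 0.22 for Orm1, 0.16 for Orm2 and 0.0060 for Hpx, TMM factors 0.0103 for Orm1, and the animal series as a covariate 0.0229 for Apcs. With each liver left out in turn the values ran from -0.30 to 1.37 for Saa1, -0.65 to 1.28 for Saa2, -0.30 to 0.015 for Saa3, -0.29 to 0.37 for Orm1, -0.72 to 0.50 for Orm2, -0.61 to 0.15 for Apcs and -0.37 to 0.20 for Hpx. The cause was not tested.

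Counts of the lists moved by 1 gene. DESeq2 called 2 further positive acute phase genes lower (Serpina3m and Slc39a14), 1 negative acute phase gene higher (Apoa4), 1 receptor gene higher (Lifr) and 1 lower (Il1r1), 1 feedback gene higher (Socs2) and 1 clearance gene lower (Cd163), some of these named here for that call only. The same total gave 1 transcription factor and 1 feedback gene higher and 1 clearance gene lower, no filter gave 1 clearance gene lower, and quantile normalization gave 0 ligands higher. With each liver left out, positive acute phase genes called lower ran from 1 to 2 (2 without Brap F/F replicate 4), ligands called higher from 0 to 1, and clearance genes called lower from 0 to 1 (1 without Brap LKO replicate 1). With windows of 25 bases the share found in other genes was 38.1% for Saa1, 30.7% for Saa2, 6.78% for Saa3, 1.67% for Hp, 31.3% for Orm1, 39.1% for Orm2 and 4.13% for Crp.

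Replicate numbers are shared by the groups, but correlations of same-numbered livers' deviations were -0.129, 0.0034, 0.196 and 0.292, so they were not taken as pairs. Brap LKO replicates 2, 3 and 4 and Brap F/F replicates 3 and 4 correlated best with the other group's liver of their own number. Brap LKO replicate 1 and Brap F/F replicates 1 and 2 did not. With the replicate block 0 members were higher and 0 lower, and over all genes 80 were higher and 15 lower in place of 102 and 16.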
